A study of Mus musculus with 2 samples.

Results

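The Mir17 to Mir92-1 polycistron is a run of 6 microRNA genes, Mir17, Mir18, Mir19a, Mir20a, Mir19b-1 and Mir92-1, that are cut from 1 long non-coding transcript, Mir17hg, on mouse chromosome 14. Its members were taken by name, as all 6 microRNA genes of that transcript, out of 1973 microRNA loci in the count tables, and all 6 were found there. Levels were measured by small-RNA sequencing of facial prominences, the swellings of the embryonic head that grow and fuse into the face, in B6NCrl mouse embryos at embryonic day 11.5. There was 1 group of 2 libraries, each from tissue pooled over male and female embryos, 109 of them for replicate 1 and 88 for replicate 2. The labels describe the embryos as healthy, name no treatment or genotype, number the pools as separate biological replicates and give both the same donor entry.

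MicroRNAs are cut as hairpins from a longer transcript and trimmed to a mature RNA, which guides silencing complexes to messenger RNAs chiefly through its seed, bases 2 to 8. The Mir17 to Mir92-1 cluster is known for promoting proliferation and survival, is switched on by Myc and E2F factors, and is known as an oncogenic microRNA cluster in lymphoma. It is needed for heart and lung growth in mice, and loss of 1 copy of its human counterpart causes a form of Feingold syndrome, with a small head and defects of the fingers. The 17-type members (Mir17 and Mir20a) are known to repress brakes on the cell cycle such as Cdkn1a, and the 19-type members are Mir19a and Mir19b-1.

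The mature RNAs that each hairpin is best known for are printed because their seeds divide the members into 4 types. They are RefSeq sequences on GRCm38.p6, given 5′ to 3′ with the seed in capitals.
miR-17-5p: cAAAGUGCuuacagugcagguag
miR-20a-5p: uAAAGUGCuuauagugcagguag
miR-18a-5p: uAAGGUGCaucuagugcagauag
miR-19a-3p: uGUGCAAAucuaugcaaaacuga
miR-19b-3p: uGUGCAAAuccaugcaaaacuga
miR-92a-3p: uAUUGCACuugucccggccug

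Mir17 and Mir20a thus share 1 seed and Mir19a and Mir19b-1 another, while Mir18 and Mir92-1 have a seed of their own within the cluster. With positions counted from 1 at the 5′ end and the first-named RNA's base given first, miR-17-5p and miR-20a-5p differed by C1U and C12U, both outside the seed. miR-19a-3p and miR-19b-3p differed by U11C alone. miR-18a-5p differed from miR-17-5p at 6 of 23 positions, of which A4G is the one within the seed.

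All 6 hairpins lie on the plus strand within exon 2 of the only annotated Mir17hg transcript in GENCODE M21 (GRCm38, the assembly also called mm10). The gene spans 115042879 to 115046727 and its exon 2 spans 115043271 to 115046727. The hairpins occupy 836 bases, from 115043671 to 115044506, with gaps of 35 to 96 bases between neighbours, and no other locus of the count tables lies within Mir17hg. Sense counts over all loci summed to 1941745 for replicate 1 and 2319881 for replicate 2. A single count was thus worth 0.515 CPM in the first library and 0.431 CPM in the second (CPM, counts scaled to a sense total of 1000000). No member had a count on the opposite strand in either library.

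Together the 6 members took 11.2% of all sense counts in replicate 1 (95% exact binomial interval 11.2 to 11.3) and 11.0% in replicate 2 (10.9 to 11.0), a mean of 11.1% ± 0.168 (SD, n = 2). Set against all mapped reads, which include those at several positions or at no locus, the mean share was 6.37%. The members' summed counts leave out reads of exactly the mature RNAs of Mir19b-1 and Mir92-1, as set out below. The members were far from equal. Mir17 and Mir20a, the 17-type pair, held 81.8% of the polycistron's counts in replicate 1 and 81.6% in replicate 2. Mir18 held 11.9% and 11.2%, and Mir92-1 held 6.14% and 7.07%. Mir19a and Mir19b-1 together held 0.146% and 0.160%. Counting intervals here and below cover counting error only, and not other spread between pools. The labels name no molecular identifiers, so reads copied from the same molecule cannot be told apart. The intervals can therefore be too narrow even for counting error.

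Mir17 (ENSMUSG00000065508.1; chromosome 14, 115043671 to 115043754), the first hairpin, stood at 67588 CPM (replicate 1) and 66772 CPM (replicate 2), a mean of 67180 ± 577 (SD, n = 2). It ranked second among all 1973 loci. Mir20a (ENSMUSG00000065442.1; 115044157 to 115044263), the fourth hairpin and the other carrier of the AAAGUGC seed, stood at 24156 and 22740 CPM and ranked 11. Mir17 exceeded Mir20a by 2.80-fold in replicate 1 and 2.94-fold in replicate 2. The RefSeq hairpin of Mir17 shows the layout of a member, with both annotated mature RNAs in capitals.
Mir17 hairpin: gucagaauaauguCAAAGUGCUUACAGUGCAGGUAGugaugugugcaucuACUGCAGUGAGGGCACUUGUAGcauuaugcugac

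Mir18 (ENSMUSG00000065403.1; 115043851 to 115043946), the second hairpin, stood at 13336 CPM (replicate 1) and 12310 CPM (replicate 2), and ranked 21. Mir92-1 (ENSMUSG00000076062.1; 115044427 to 115044506), the last hairpin, stood at 6889 and 7763 CPM and ranked 39. Mir18 was higher than Mir92-1 in both libraries, by a log2 difference of level of 0.95 in replicate 1 and 0.67 in replicate 2. The counts of Mir92-1 are incomplete, as set out below. Counts are given per locus and do not separate the arms of a hairpin, so a level can include both mature RNAs.

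The 19-type members were the lowest of the polycistron. Mir19a (ENSMUSG00000065416.1; 115044000 to 115044081), the third hairpin, had 253 counts in replicate 1 and 308 in replicate 2, or 130 CPM (interval 115 to 147) and 133 CPM (118 to 148). Mir19b-1 (ENSMUSG00000076256.1; 115044305 to 115044391), the fifth hairpin, had 65 and 99 counts, or 33.5 CPM (25.8 to 42.7) and 42.7 CPM (34.7 to 52.0). They ranked 206 and 265, among 351 loci that reached at least 10 counts in both libraries. Mir17 exceeded Mir19a by 519-fold in replicate 1 and 503-fold in replicate 2. Both are cut from the same annotated transcript, and what set their counts apart was not tested.

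The order of level, Mir17, Mir20a, Mir18, Mir92-1, Mir19a, Mir19b-1, was the same in both libraries. No neighbouring pair in it came within the spread between pools: in all 5 pairs the log2 difference of level in each library was larger than the log2 ratio between pools of either member. The mean differences were 1.52 ± 0.05 for Mir17 over Mir20a, 0.87 ± 0.02 for Mir20a over Mir18, 0.81 ± 0.20 for Mir18 over Mir92-1, 5.80 ± 0.10 for Mir92-1 over Mir19a and 1.80 ± 0.23 for Mir19a over Mir19b-1 (SD, n = 2). The widest step therefore lay between the 4 abundant members and the 19-type pair. With 2 libraries no two-sided exact test can go below p = 0.5, so these differences carry no test. Counts of Mir92-1 and Mir19b-1 leave out reads of exactly their mature RNA, as set out below, so their places in this order are uncertain. A loss common to both pools would not show in the spread between them. CPM was not divided by length, since the mature RNAs printed above are 21 to 23 bases long.

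The order of level did not follow the order of the hairpins along the transcript. Both 19-type hairpins are flanked by abundant members. Mir18 exceeded Mir19a, its neighbour downstream, by a log2 difference of 6.61 ± 0.10, and Mir20a, the next hairpin along, exceeded Mir19a by 7.48 ± 0.08. Mir20a exceeded Mir19b-1, which 41 bases separate from the Mir20a hairpin, by 9.28 ± 0.31. Mir92-1, 35 bases beyond Mir19b-1, exceeded it by 7.60 ± 0.13. The counts of Mir19b-1 and Mir92-1 are incomplete, so the differences that involve them are uncertain.

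**Figure D1:**
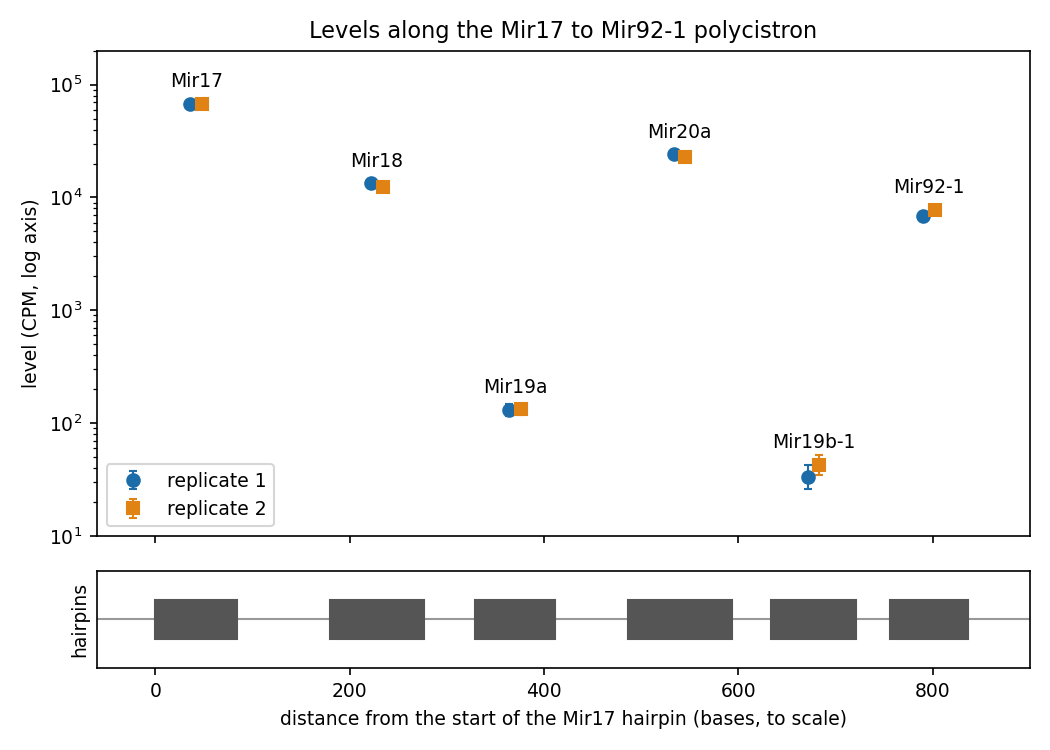
Level of each polycistron member in CPM (log axis) against the distance of its hairpin from the start of the Mir17 hairpin in bases. Circles are replicate 1, squares are replicate 2, bars are 95% exact binomial intervals, and the boxes in the lower panel are the hairpins to scale. Mir17, Mir18, Mir20a and Mir92-1 lie at 6889 CPM or higher, and Mir19a and Mir19b-1, each between abundant members on the transcript, lie at 133 CPM or lower.

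Hairpin features that the choice of members did not use were then set beside the levels. Hairpin length ran from 80 bases for Mir92-1 to 107 for Mir20a, and GC content from 43.7% for Mir19b-1 to 47.5% for Mir92-1, a narrow range. The minimum free energy predicted by RNAfold was -38.7 kcal/mol for Mir19a, -38.6 for Mir20a, -37.8 for Mir19b-1, -36.7 for Mir17, -34.0 for Mir92-1 and -29.2 for Mir18. Longer hairpins tend to have lower energies, and per base the values were -0.472 for Mir19a, -0.437 for Mir17, -0.434 for Mir19b-1, -0.425 for Mir92-1, -0.361 for Mir20a and -0.304 for Mir18. GC content of the mature RNA was 34.8% for miR-19a-3p, 39.1% for both miR-19b-3p and miR-20a-5p, 43.5% for miR-18a-5p, 47.8% for miR-17-5p and 57.1% for miR-92a-3p.

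Reads placed at several positions are kept apart in the deposited tables and are in no locus count. That class held 1081615 reads in replicate 1 and 1388721 in replicate 2, which was 32.9% and 33.3% of the mapped reads. It touches members whose mature RNA also occurs elsewhere. Of the 6 members, 2 share a mature RNA with a locus of the paralog cluster on the X chromosome: miR-19b-3p lies in both Mir19b-1 and Mir19b-2, and miR-92a-3p in both Mir92-1 and Mir92-2. These hairpins are printed with the longest run that each pair shares in capitals.
Mir19b-1 hairpin: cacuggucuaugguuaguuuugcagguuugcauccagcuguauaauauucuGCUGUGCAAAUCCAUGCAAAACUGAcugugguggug
Mir19b-2 hairpin: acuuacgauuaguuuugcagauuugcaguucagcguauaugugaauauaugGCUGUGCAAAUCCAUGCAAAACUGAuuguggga
Mir92-1 hairpin: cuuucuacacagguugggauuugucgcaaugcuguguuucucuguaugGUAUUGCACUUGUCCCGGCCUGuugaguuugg
Mir92-2 hairpin: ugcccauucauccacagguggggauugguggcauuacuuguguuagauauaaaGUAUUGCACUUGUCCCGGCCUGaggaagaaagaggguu

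The shared run of the Mir19b hairpins is 25 bases and that of the Mir92 hairpins 22 bases, and both end at the last base of the mature RNA, so a read of exactly the annotated mature RNA matches both loci of its pair. The levels of Mir19b-1 and Mir92-1 are therefore incomplete and their true levels are uncertain. How many reads each of these loci lost in this way was not tested. Mir19a shares no identical mature RNA with another locus of the RefSeq table, and its longest exact run in common with any of 1004 other RefSeq hairpins was 13 bases. This comparison covers neither the rest of the genome nor placement with mismatches, and miR-19a-3p differs from miR-19b-3p by a single base, so the part of reads placed at several positions in the low counts of Mir19a was not tested either. Its hairpin is printed with the annotated mature RNA in capitals.
Mir19a hairpin: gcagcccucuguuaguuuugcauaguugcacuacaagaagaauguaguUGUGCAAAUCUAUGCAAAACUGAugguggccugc

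The polycistron has 2 paralog clusters, Mir106b, Mir93 and Mir25 on chromosome 5 and Mir106a to Mir363 (6 loci) on the X chromosome. Both are on the minus strand, and their members carry the same seeds. Of the summed counts of all 3 clusters the polycistron took 75.8% in replicate 1 and 75.6% in replicate 2, the Mir106b to Mir25 cluster 19.7% and 19.8%, and the Mir106a to Mir363 cluster 4.45% and 4.59%. As shares of all sense counts these were 11.1% ± 0.168 for the polycistron, 2.89% ± 0.0336 for the Mir106b to Mir25 cluster and 0.662% ± 0.00608 for the Mir106a to Mir363 cluster (SD, n = 2). These sums include the incomplete counts of Mir19b-1, Mir92-1, Mir19b-2 and Mir92-2.

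Each of 5 members has a counterpart at the matching place in the X-linked cluster. By counted reads, every counterpart was lower in both libraries by more than the spread between pools. Mir17 exceeded Mir106a, at 2481 and 2466 CPM, by 27.2-fold in replicate 1 and 27.1-fold in replicate 2. Mir18 exceeded Mir18b by 59.4-fold and 51.0-fold, and Mir20a exceeded Mir20b by 16.6-fold and 15.3-fold. Mir92-1 exceeded Mir92-2 by 15.2-fold and 14.2-fold. Mir19b-1 exceeded Mir19b-2, which had 28 and 33 counts, by 2.32-fold and 3.0-fold. Mir92-1 and Mir92-2 hold the same mature RNA, as do Mir19b-1 and Mir19b-2, so reads of exactly that RNA are in neither count. The folds of these pairs compare only the remaining reads, and the shares of 19-type and 92-type loci rest on the same incomplete counts. Mir19b-2 was the lowest locus of its cluster, as Mir19b-1 was of the polycistron, and 19-type loci took 0.153% ± 0.00975 of the polycistron's counts and 0.216% ± 0.00407 of the X-linked cluster's (SD, n = 2). The types were otherwise divided differently: 92-type loci took 6.61% ± 0.657 of the polycistron's counts and 36.7% ± 0.235 of the X-linked cluster's, where Mir363 belongs to them.

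**Figure D2:**
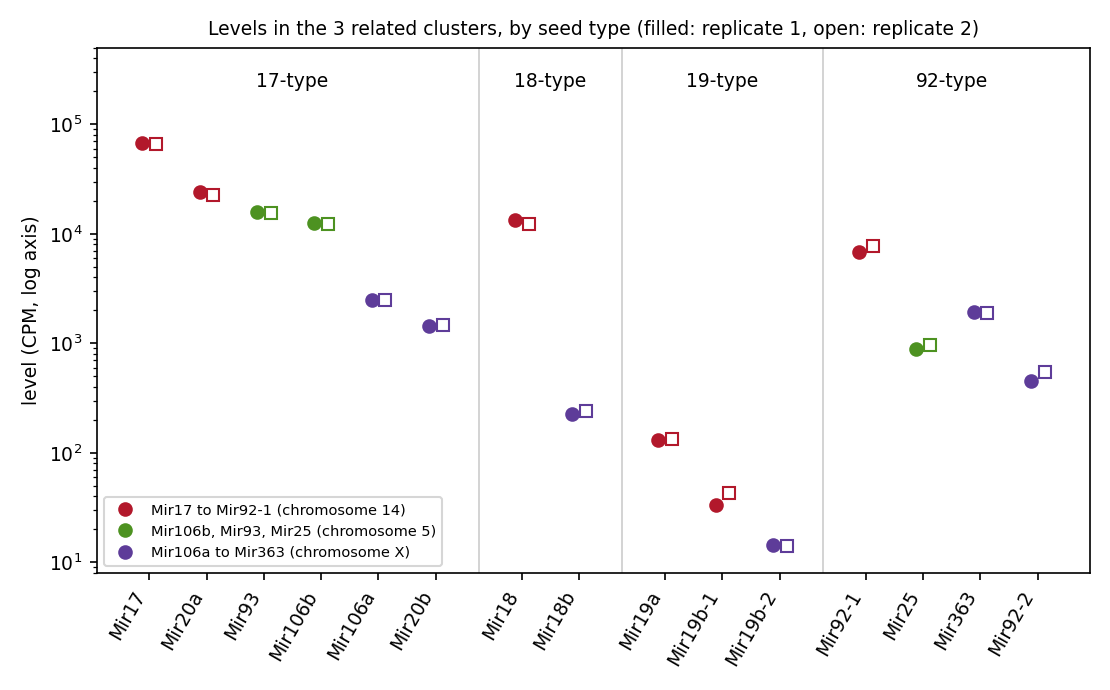
Level in CPM (log axis) of the 15 loci of the 3 clusters, grouped by seed type. Filled circles are replicate 1 and open squares replicate 2, and colours mark the cluster. Mir17 and Mir20a lead the 17-type loci, Mir18 and Mir92-1 lead their types, and all 3 loci of the 19-type lie at 133 CPM or lower. Counts of Mir19b-1, Mir19b-2, Mir92-1 and Mir92-2 are incomplete.

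Since mature RNAs with 1 seed can act on the same targets, the counts were also summed over every locus with an annotated mature RNA of each seed. These sums are per locus and can include both arms of a hairpin, so they are not counts of the RNAs that carry the seed. The other family members with at least 10 counts in both libraries, apart from those printed above, are given with the seed in capitals, to show where they depart from the polycistron's RNAs.
miR-93-5p: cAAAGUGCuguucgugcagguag
miR-106b-5p: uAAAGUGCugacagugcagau
miR-106a-5p: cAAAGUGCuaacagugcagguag
miR-20b-5p: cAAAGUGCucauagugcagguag
miR-18b-5p: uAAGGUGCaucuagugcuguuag
miR-92b-3p: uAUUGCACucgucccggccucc
miR-363-3p: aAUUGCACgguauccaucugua
miR-25-3p: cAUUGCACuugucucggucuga
miR-32-5p: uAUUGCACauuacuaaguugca

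miR-106a-5p is the nearest of these to miR-17-5p, by U10A alone, while miR-93-5p differs from it by U10G, A11U, C12U and A13C. miR-20b-5p differs from miR-20a-5p by U1C and U10C, and miR-18b-5p from miR-18a-5p by A18U and A20U. No longest run shared between the hairpins of Mir17, Mir18, Mir19a or Mir20a and any other RefSeq hairpin was over 17 bases, shorter than the mature RNAs.

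The AAAGUGC family was the largest of the 4, with 12.4% of all sense counts in replicate 1 and 12.1% in replicate 2. Mir17 and Mir20a supplied 74.0% and 73.8% of it, Mir93 and Mir106b 22.8% and 22.9%, and Mir106a and Mir20b 3.17% and 3.26%. Another locus with this seed, Mir6383, had 0 counts in both libraries, and 3 counts, the limit that a count of 0 allows, correspond to 1.55 CPM in the first library and 1.29 CPM in the second. Within the family Mir17 exceeded Mir93, the highest paralog at 15770 and 15514 CPM, by 4.29-fold and 4.30-fold. Mir20a exceeded Mir93 by 1.53-fold and 1.47-fold, and Mir106b, at 12528 and 12233 CPM, by 1.93-fold and 1.86-fold, in each case beyond the spread between pools.

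The AAGGUGC family consisted of Mir18 and Mir18b and took 1.36% and 1.26% of all sense counts, of which Mir18 supplied 98.3% in replicate 1 and 98.1% in replicate 2. The GUGCAAA family of 19-type loci took 0.0178% and 0.0190%, from 346 and 440 counts. The polycistron's Mir19a and Mir19b-1 supplied 91.9% (interval 88.5 to 94.6) and 92.5% (89.6 to 94.8) of it. Of all 4 families this one had the fewest counts in both libraries. Its counts are incomplete too, since Mir19b-1 and Mir19b-2 share the whole of miR-19b-3p, and the reads left out for that reason were not analysed here.

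The AUUGCAC family of 92-type loci was the most divided. It took 1.26% and 1.42% of all sense counts, and Mir92-1 supplied 54.6% in replicate 1 and 54.7% in replicate 2. The remainder came from Mir92b (2039 and 2625 CPM), Mir363 (1949 and 1911 CPM), Mir25 (882 and 957 CPM), Mir92-2 (454 and 546 CPM) and Mir32 (415 and 399 CPM), while Mir367 had 0 and 2 counts. Mir92-1 exceeded Mir25 by 7.81-fold and 8.12-fold and Mir363 by 3.53-fold and 4.06-fold. Shares in this family rest on Mir92-1 and Mir92-2, whose counts are incomplete. They leave out reads of exactly miR-92a-3p, the RNA of both loci that carries this seed.

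**Figure D3:**
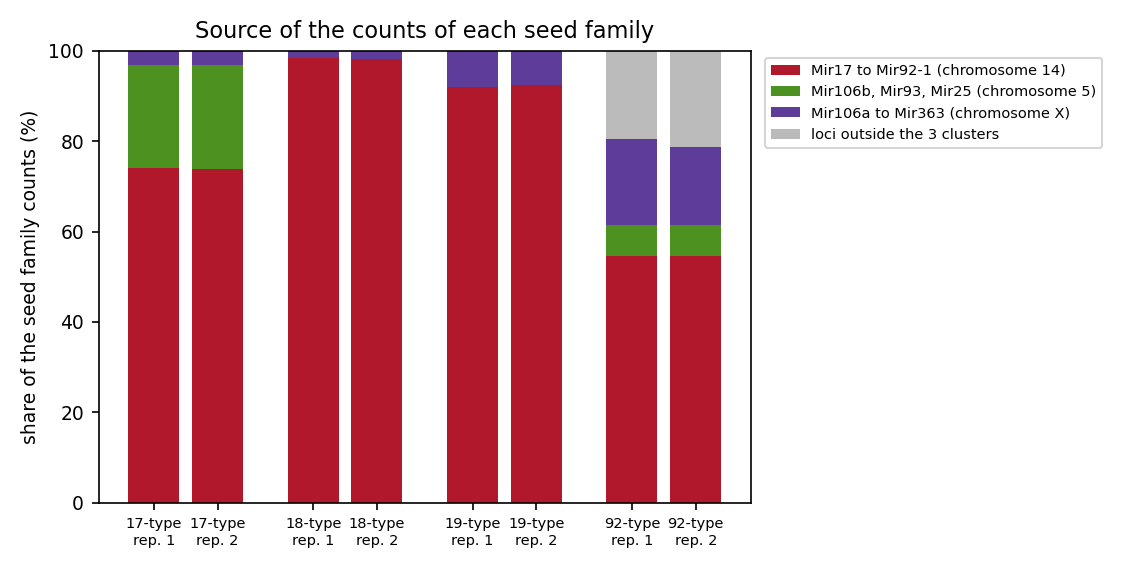
Share of the counts of each seed family (percent, stacked to 100) that came from the polycistron, from each paralog cluster and from loci outside the 3 clusters, in replicate 1 and replicate 2. The polycistron supplied 74.0% and 73.8% of the 17-type family, over 90% of the 18-type and 19-type families, and 54.6% and 54.7% of the 92-type family. Counts are summed per locus and can include both arms of a hairpin. Those of Mir19b-1, Mir19b-2, Mir92-1 and Mir92-2 are incomplete, so the 19-type and 92-type shares are uncertain.

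How far the members' levels repeat was asked by setting replicate 1 over replicate 2. A mean count of 100 or more over both libraries was reached by 257 loci. Past 2-fold were 5 of these, or 1.95%, and none of the 6 members. Of the members 5 are among the 257, and Mir19b-1 is not. The median absolute log2 ratio was 0.10 over the 6 members and 0.14 over the 257 loci, and the median signed ratio 0.00 and -0.01. These medians are not at like depth, since Mir17, Mir20a, Mir18 and Mir92-1 had more counts than most of the 257 loci. Mir17 had a log2 ratio of 0.02 (interval 0.01 to 0.03), and 4.67% of the 257 loci had a smaller absolute ratio.

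Mir18 and Mir20a were slightly higher in replicate 1, with log2 ratios of 0.12 (0.09 to 0.14) and 0.09 (0.07 to 0.11). Mir92-1 was lower in replicate 1, with a ratio of -0.17 (-0.20 to -0.14), so the members' ratios differed in sign. Of the 257 loci, 43.2%, 30.7% and 59.1% had a smaller absolute ratio than Mir18, Mir20a and Mir92-1. Shifts of this size were thus common between the pools, and the intervals cover counting error only. Mir92-2, the X-linked counterpart of Mir92-1, had a ratio of -0.27 (-0.39 to -0.14) and Mir25, of the same seed, -0.12 (-0.21 to -0.03). Of the other loci with that seed, Mir92b had a ratio of -0.36, Mir363 one of 0.03 (-0.03 to 0.09) and Mir32 one of 0.06. The family's ratios thus differed in sign as well. Mir19a had -0.03 (-0.27 to 0.22) and Mir19b-1 -0.35 (-0.82 to 0.12), intervals that include no difference at this depth. The summed polycistron had a ratio of 0.03 (0.02 to 0.04), beside 0.02 (0.01 to 0.04) for the Mir106b to Mir25 cluster and -0.02 (-0.05 to 0.02) for the X-linked cluster.

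**Figure D4:**
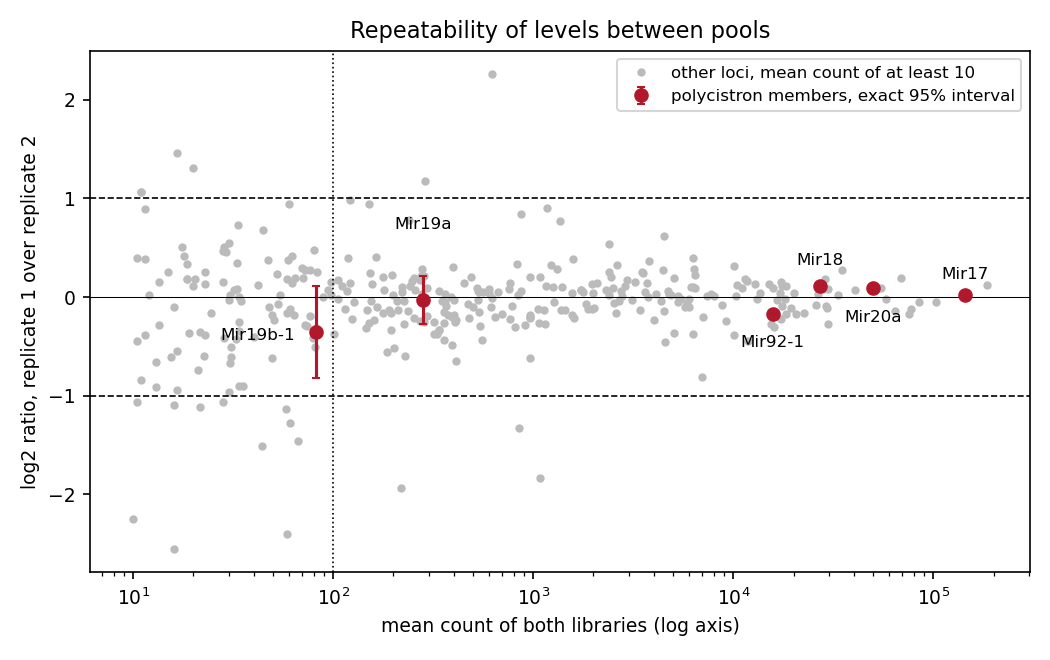
Log2 ratio of level, replicate 1 over replicate 2, against the mean count of both libraries (log axis), for every locus whose mean count reached 10. Red points are the 6 members with 95% exact intervals, dashed lines mark 2-fold and the dotted line marks a mean count of 100. The members lie between -0.35 and 0.12, inside the 2-fold lines.

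The loci nearest in level to each member were found by the smallest distance in log2(CPM + 1) over the 2 libraries, a measure of level only. Mir335 and Mir99a were nearest to Mir17, at distances of 0.54 and 0.68. Mir30e and Mir23b were nearest to Mir20a (0.20 and 0.31), Mirlet7i and the paralog Mir106b to Mir18 (0.06 and 0.09), and Mir431 and Mir149 to Mir92-1 (0.09 and 0.10). For the low members these were Mir877 and Mir222 beside Mir19a (0.00 and 0.03) and Mir592 and Mir450-1 beside Mir19b-1 (0.03 and 0.09).

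Marker loci of the tissue were present: all 7 mesenchyme loci and all 7 epithelium loci reached 10 counts in both libraries, taking 5.25% and 3.31% of the counts in replicate 1 and 5.58% and 2.95% in replicate 2. The endothelial Mir126a took 3.90% and 4.04%. Among other cell types, erythroid loci (2 of 2 detected) took 0.0264% and 0.0593%, striated muscle loci (5 of 8, with Mir133a-1 and Mir133a-2 at 0) 0.0628% and 0.149%, leukocyte loci (2 of 2) 0.0393% and 0.0476%, neural loci (1 of 5, with Mir124a-3 at 0) 0.00309% and 0.00332%, and Mir122 of liver 0.00160% and 0.00440%. The numbers in brackets leave out Mir142 (leukocyte), Mir1a-2 (striated muscle) and Mir9-1 (neural), which were listed but not among the loci counted. Reads placed at several positions are in no locus count, so a locus at 0 does not show that its mature RNA was absent. As list sums, the erythroid, muscle and liver markers were over 2-fold lower in replicate 1, while the members stayed within 2-fold. Not every locus of these lists moved past 2-fold. The erythroid Mir451a had a log2 ratio of -1.33 and its listed partner Mir144 of 0.02. Of the detected muscle loci, Mir208a, Mir208b and Mir499 had -1.93, -1.84 and -1.51, while Mir206 and Mir133b had -0.62 and 0.00. The part of cell makeup in the members' ratios was not tested. In whole tissue, fewer cells of a type and less RNA per cell cannot be told apart.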

How the data were processed

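Raw counts for each microRNA gene were deposited by the authors for mm10 and the GENCODE M4 annotation, per the text file accompanying each table. Aligner and counting program are not given in the sources used here. Sense counts were scaled to CPM by the total over all loci. Reads in no locus count stayed outside this total, and those at several positions can come from named loci. In replicate 1 unmapped reads were 30.9%, reads at several positions 22.7% and reads at no locus 5.51% of 4755968 reads. In replicate 2 they were 38.6%, 20.5% and 6.75% of 6781929. The libraries differed by more than sampling noise (chi-square 14731, 362 degrees of freedom).

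Identifiers were matched to GENCODE M21 without versions (1894 of 1973; all 6 members also with the version), and RefSeq hairpin and mature sequences were found for all 6 members. Intervals are exact 95% (Clopper-Pearson). A level difference was called larger than the spread between pools when it exceeded, in each library, each locus's own log2 ratio between pools. Alternative library sizes were TMM (edgeR 4.0.16) and size factors (DESeq2 1.42.0), in R 4.3.3. Hairpins were folded with RNAfold 2.7.2. The remaining steps ran in Python 3.11.15 with matplotlib 3.10.9, scipy 1.17.1, pandas 2.3.3 and numpy 2.4.6.

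Named loci are the members, the paralogs, loci sharing a seed, and the 2 loci nearest each member in level. Members, lists and rules were chosen with earlier results of these data known. With 1 group there is no test between conditions, and p-values are not given. Spread is that between 2 pools, which may be partly technical.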

Additional observations from a re-analysis of the deposited data

How the results depend on the processing

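Over 25 results, 96 alternative values were computed. Of these, 83 moved by less than the spread between pools (or the counting interval for ratios between pools), and 13 moved further. The number of loci past 2-fold was instead judged by its fold change between settings. A change of sign was looked for only in the 5 differences between neighbours in level, and 0 were found. None could occur there, since the order was the same in both libraries and no member had opposite-strand counts. The polycistron's share of counts, 11.1%, was 10.7% with counts irrespective of strand and 6.37% per all mapped reads. The number of loci past 2-fold between pools, 5, was 13 with a minimum mean count of 20 and 3 with 500. Without loci that share 20 bases with another hairpin, the polycistron's share of the AUUGCAC family was 0%, since Mir92-1 itself is then left out, and its share of the GUGCAAA family was 100%, since Mir19a alone remains. The other values that moved further were member levels under a changed total. Leaving out replicate 1 or replicate 2 in turn moved no result by more than the spread, which by construction it cannot with 2 libraries. Counts irrespective of strand could not change differences between members, since no member had opposite-strand counts. Leaving out loci that share 20 bases removed none from the AAAGUGC and AAGGUGC families, so their shares could not change. Values fixed in these ways are among the 83. No paired analysis was possible because there is 1 group. Depth limits Mir19b-1, with 65 and 99 counts, and Mir19b-2, with 28 and 33.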
